A study of Mus musculus with 8 samples.

Results

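The 9 genes described here encode histone deacetylases (HDACs) and poly(ADP-ribose) polymerases (PARPs), enzymes known to act with the chromatin remodeller BRG1 in stressed hearts. They were Hdac1, Hdac2 and Hdac3 of class I, Hdac4, Hdac5, Hdac7 and Hdac9 of class IIa, and Parp1 and Parp2. They were chosen by name, with no threshold on their values, and all 9 were found among 37273 genes that the GENCODE annotation of the mouse build mm9 places on the autosomes, X and Y. Hdac4 has 2 entries in this annotation, of which the longer was used.

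The data came from a ChIP-seq experiment on injured adult hearts of C57BL/6 mice, whose age the labels give as 10 to 12 weeks, whereas the study's methods state a somewhat older range. Mice were injected intraperitoneally each day for a week with thymosin β4 (Tβ4), a peptide that activates the epicardium, at 12 mg per kg, or with PBS as vehicle. The left anterior descending coronary artery was then ligated permanently to cause a myocardial infarction (MI, day 0), injections were repeated on days 0 and 2, and hearts were collected at day 4. The 8 libraries were 2 of BRG1 ChIP and 2 of input from PBS-primed hearts, and as many of each from Tβ4-primed hearts. Whole digested hearts were used, so cell types were mixed in every library. The series holds no expression data, so the tissue could not be checked against marker genes.

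The values below describe the deposited list of 524614 BRG1 regions, whose name gives Tβ4-primed BRG1 ChIP against input. The exact call is not known, because the methods and the form of that name point to different functions of the peak caller. The list for PBS-primed hearts was not analysed here. The regions had a median length of 600 bp and together covered 25.8% of the genome. The list gave a start and an end for each region, with no height and no separate replicates, so depth and replicate spread are unknown. Every value is therefore a description without a test, and PBS-primed hearts were not set beside Tβ4-primed ones.

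BRG1, encoded by Smarca4, is an ATPase of SWI/SNF complexes, which use ATP to move nucleosomes. Class I HDACs remove acetyl groups from histones in nuclear co-repressor complexes, and class IIa HDACs bind MEF2 transcription factors and leave the nucleus when phosphorylated in response to stress signals. PARP1 and PARP2 are activated by DNA breaks and attach chains of ADP-ribose to chromatin proteins. In stressed hearts, BRG1 is known to work with HDACs and PARP on the genes of the α and β myosin heavy chains. Here the measurement was of BRG1 on the genes of these enzymes themselves, not of the enzymes on chromatin.

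BRG1 regions extended over the transcription start sites (TSSs) of Hdac2 and Hdac7, lay within 1 kb on both sides of the TSSs of Hdac4 and Parp1, and were missing within 5 kb of the TSS of Hdac9. Over the whole gene with 5 kb flanks, Hdac2 was covered most (57.3% of bases) and Hdac5 least (6.82%). The other 7 genes had between 12.5% and 29.2% of their bases inside regions. The median of the 9 genes was 21.9%, beside 24.04% over all annotated genes (quartiles 12.7% and 36.0%) and 25.2% over 22367 protein-coding genes. Among the 9 genes, 4 lay above the median of all genes. The same windows held 235 regions in sum, from 5 at Hdac2 and Hdac5 to 111 at Hdac9.

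**Figure D1:**
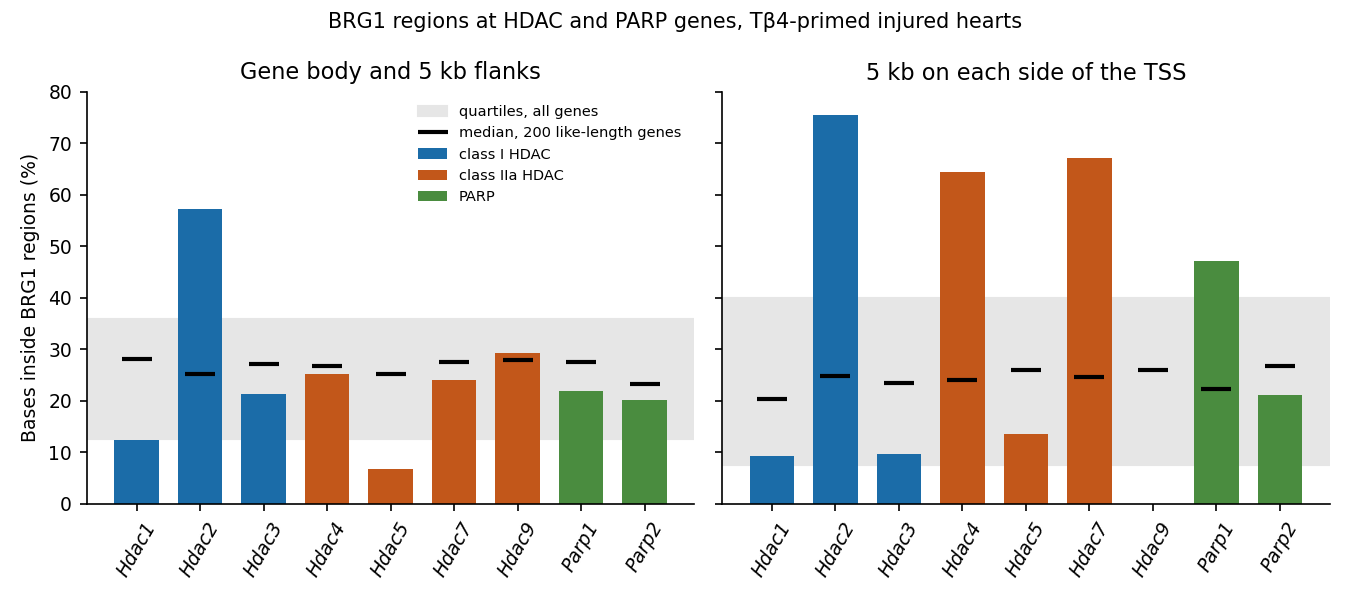
Percent of bases inside BRG1 regions for each of the 9 genes, over the gene body with 5 kb flanks (left) and over 5 kb on each side of the TSS (right); bars are coloured by enzyme family, black lines give the median of the 200 genes nearest in length and the grey band the quartiles of all annotated genes. Hdac2 stood above the band in both panels, Hdac4, Hdac7 and Parp1 stood above it around the TSS alone, and Hdac9 had no bar around the TSS because its value was 0.

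Long genes hold more regions than short ones, so each gene was also ranked among the 200 annotated genes nearest to it in length. A percentile here is the percent of those genes with a lower value, with tied genes shared equally between both sides, and it is a rank, not a p-value. By covered share, Hdac2 ranked at the percentile of 96 and Hdac9 at 62.5, and the other 7 genes ranked below the middle. Hdac5 ranked at 3.5 and Hdac1 at 10. Parp1, Parp2, Hdac3, Hdac4 and Hdac7 ranked between 31.5 and 43. Over the gene body alone Parp2 ranked above the middle, at 59.5, and with flanks of 10 kb Hdac3 did so, at 53. By number of regions per kb, the order was different, with 7 of the 9 genes above the median of their like-length genes. The exceptions were Hdac2 (percentile of 12.5), which held few but long regions, and Hdac5 (5).

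At the TSS, 2 of the 9 genes had the start inside a region (22.2%, exact 95% binomial interval 2.81% to 60.01%, which covers counting error only). Among all annotated genes the share was 24.7%, and among protein-coding genes it was 24.2%, so the count for the 9 genes was close to the background. A region within 5 kb of the TSS was present for 8 of the 9 genes (88.9%, exact interval 51.8% to 99.7%), against 89.9% of all annotated genes and 90.5% of protein-coding genes. That share was also near the background. Within 1 kb of the TSS, 4 of the 9 genes had a region, against 54.3% of all annotated genes and 55.4% of protein-coding genes. The covered share of the 10001 bp around the TSS ran from 0% at Hdac9 to 75.5% at Hdac2, with a median of 21.1% beside 21.5% over all genes. The genes lay in 2 groups, with 4 genes at 47.1% or more and 5 genes at 21.1% or less. In narrower windows the median of the 9 genes was below that of all genes. It was 6.00% beside 14.7% within 2 kb of the TSS, and 0% beside 10.5% within 1 kb.

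**Figure D2:**
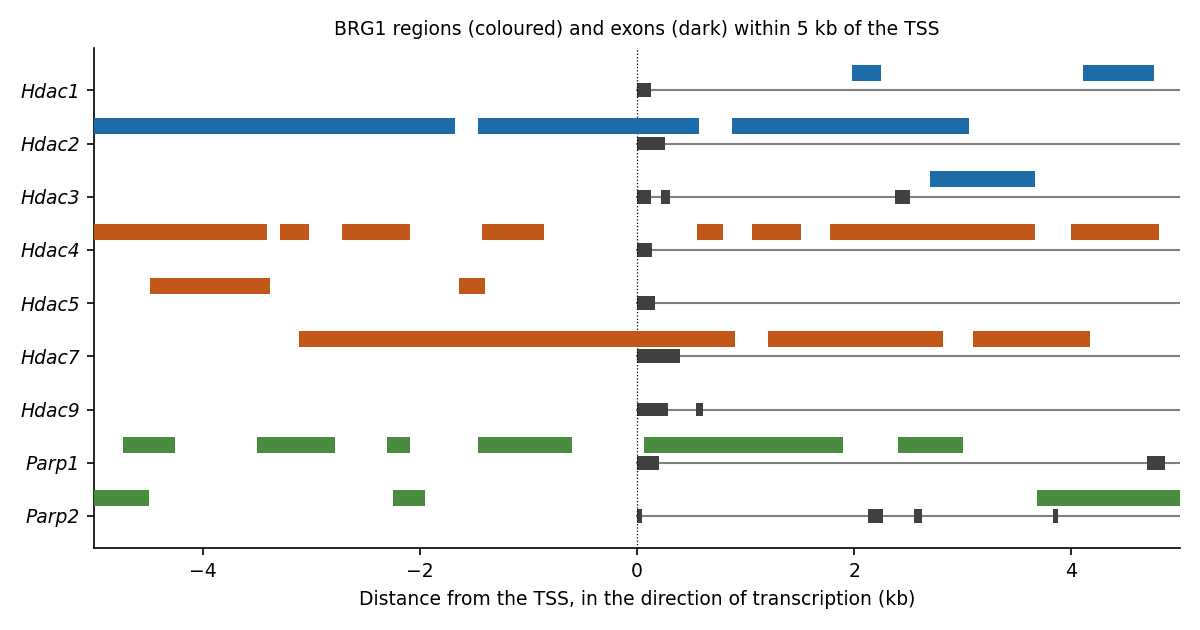
BRG1 regions (coloured blocks) and exons (dark blocks on the gene line) within 5 kb of the TSS of each gene, with distance in kb in the direction of transcription. Regions crossed the TSS of Hdac2 and Hdac7, a region began 64 bp past the TSS of Parp1, and the row of Hdac9 held no region.

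Hdac2 encodes a class I deacetylase that, with HDAC1, forms the catalytic core of the NuRD, SIN3 and CoREST complexes, and it is known for a role in hypertrophic growth of the heart. The gene lies on the plus strand at chr10:36694350-36721695 (27346 bp). A region of 2040 bp, from 1.47 kb upstream to 0.569 kb downstream, contained its TSS. It was flanked by a region of 5010 bp upstream and a region of 2190 bp in the first intron, so 75.5% of the bases within 5 kb of the TSS were covered (percentile of 96.5). A gap of 11.1 kb without a region followed, from 3.06 to 14.2 kb past the TSS. Next to it were a region of 300 bp and then a region of 13590 bp, which ran from 18.8 to 32.4 kb past the TSS and beyond the 3′ end of the gene. This last region was longer than 99.9% of the regions of the list and held 63.3% of the covered bases of the window. Exons of Hdac2 were covered to 86.7% and introns to 33.7%, beside medians of 18.7% and 24.6% over protein-coding genes. The 5 kb downstream of the gene were covered to 100%.

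The 250 bp just upstream of the Hdac2 TSS lay wholly inside the region that contained the start, and they are shown as the part of a member's promoter that BRG1 regions covered in full. Their GC content was 68.8%, beside a median of 54% over the same stretch of all protein-coding genes. The stretch lies at chr10:36694100-36694349 on the plus strand of mm9 and was read from the mm9 reference genome, with motif matches in capitals.
Hdac2 upstream: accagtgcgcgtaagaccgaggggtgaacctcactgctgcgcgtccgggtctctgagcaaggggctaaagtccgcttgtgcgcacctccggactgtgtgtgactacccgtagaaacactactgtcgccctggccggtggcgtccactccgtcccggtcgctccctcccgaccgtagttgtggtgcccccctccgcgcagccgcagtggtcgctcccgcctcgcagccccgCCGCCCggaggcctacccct
The capitals mark the only motif matched there, a GC box at bases 231 to 236, read on the opposite strand. Motifs were searched on both strands: the GC box GGGCGG bound by SP1-type factors, CCAAT, the AP-1 motif TGANTCA, the MCAT motif CATTCC bound by TEAD factors, the E-box CANNTG, and a strict form of the MEF2 motif (CTA, 4 bases that are A or T, then TAG). Among protein-coding genes, a GC box was present in the same 250 bp of 39.6%, and 6 of the 9 genes had one. A match describes letters only.

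Hdac1, at chr4:129193348-129219957 on the minus strand (26610 bp), encodes the close relative of HDAC2 and is nearly equal to Hdac2 in length. Its covered share was 12.5%, and its 10 regions were short, with a median of 435 bp and a longest of 1080 bp. None lay in either flank. The nearest region to the TSS was 270 bp long and lay in the first intron, beginning 1978 bp past the TSS, so the 5 kb on each side of the TSS were covered to 9.30% (percentile of 29). With the most covered of its annotated starts, 25.2 kb past the TSS and inside a region, Hdac1 ranked at 54.5. With the least covered start it ranked at 10. At its 3′ end, 4 short regions touched exons between 23.5 and 26.04 kb past the TSS. The neighbouring gene Marcksl1, in the downstream flank, held 0 regions.

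The sequence of the nearest Hdac1 region is shown because it differs in kind from the Hdac2 promoter. It lies at chr4:129217710-129217979, printed on the minus strand from the mm9 genome, with E-box matches in capitals.
Hdac1 nearest region: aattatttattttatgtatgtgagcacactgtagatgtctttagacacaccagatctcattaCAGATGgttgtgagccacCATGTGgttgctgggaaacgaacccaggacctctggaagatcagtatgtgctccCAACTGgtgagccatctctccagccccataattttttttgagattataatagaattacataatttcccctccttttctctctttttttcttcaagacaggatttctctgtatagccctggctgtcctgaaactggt
It held 3 E-boxes and no other motif of the list, and an E-box was present in 77.3% of the 46085 regions of the same length. Its GC content was 41.1%, and 43.3% of its 24-base words occurred more than 2 times in the genome, the commonest of them 39769 times. The part of repeated sequence in the call of this region was not tested.

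Hdac3, the deacetylase of the NCOR and SMRT co-repressor complexes, lies on the minus strand at chr18:38095498-38114642 (19145 bp). Its window was covered to 21.3%, but the gene body alone to 13.5%. The largest part lay past the 3′ end, where a region of 4410 bp, a region of 1920 bp and the end of a region of 300 bp covered 72.4% of the downstream 5 kb. This flank overlaps Diap1, which encodes an actin-regulating formin, in 4633 bp, of which 3472 bp were covered. The 5 kb upstream, which hold Rell2 and the end of Fchsd1, were covered to 0%. The nearest region to the TSS was 960 bp long and began 2703 bp into the gene, and the 5 kb on each side of the TSS were covered to 9.60%.

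The 3 class I genes thus spanned 12.5% to 57.3% over their windows and 9.30% to 75.5% around the TSS. Hdac1 and Hdac3 were alike around the TSS, with a nearest region 1978 and 2703 bp away and no region upstream of the start within 5 kb. All 3 starts had a GC-rich sequence in the surrounding 300 bp, at 71.3% for Hdac1, 75.3% for Hdac2 and 65.3% for Hdac3, beside a protein-coding median of 58%. The part of base composition in the difference between Hdac1 and Hdac2 was not tested.

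**Figure D3:**
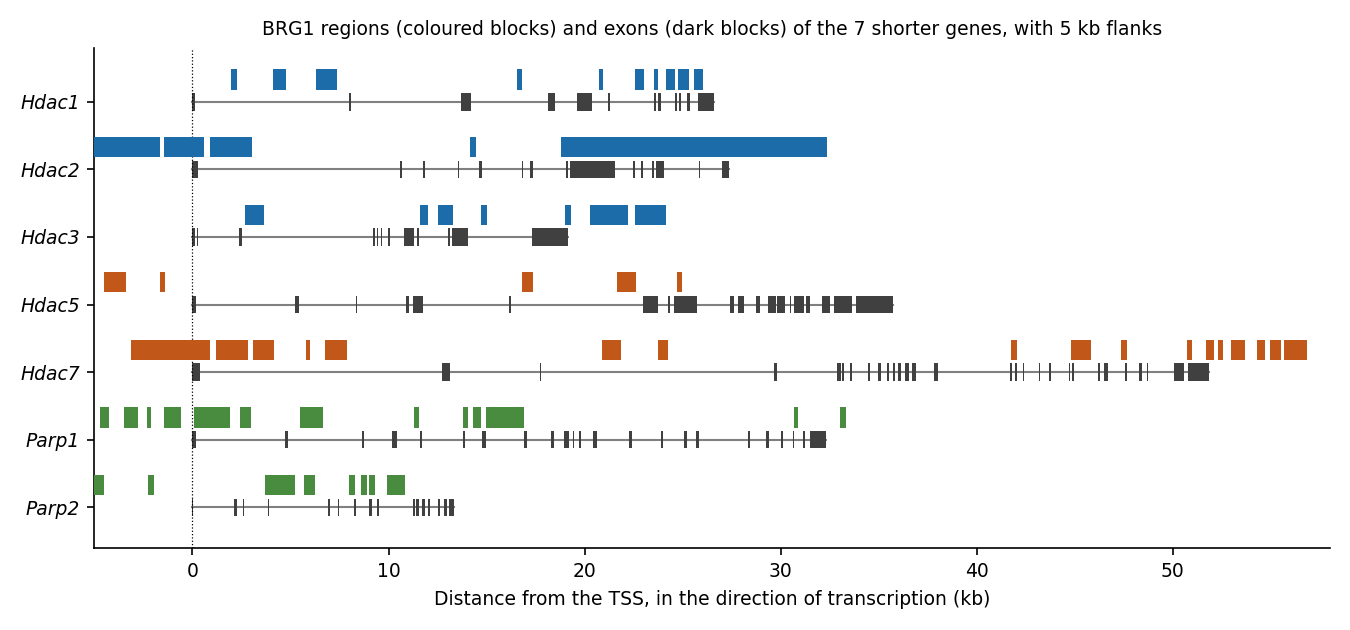
BRG1 regions (coloured blocks above each line) and exons (dark blocks) along the 7 genes shorter than 100 kb, from 5 kb upstream of the TSS to 5 kb past the 3′ end, with distance in kb in the direction of transcription. Long blocks stood at both ends of Hdac2 and at the start of Hdac7, whereas Hdac1 had small blocks only and Hdac5 had a gap of 18.2 kb across its start.

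Among the class IIa genes, Hdac7 had the most closely covered start. HDAC7 is known for its role in endothelial cells and vessel integrity. The gene lies on the minus strand at chr15:97623095-97674933 (51839 bp), and a region of 4020 bp, from 3.12 kb upstream to 0.903 kb downstream, contained its TSS. The 5 kb on each side were covered to 67.2% (percentile of 91.75), while the whole window was covered to 24.1% (percentile of 35) and the gene body to 16.2%. Of its 12 annotated start positions, 4 lay inside this region, all within 0.338 kb of the 5′ end. At the 5 starts from 12.7 to 29.6 kb into the gene, the nearest region was 4842 to 5396 bp away. With the least covered of its starts, the percentile of Hdac7 was 3. At the 3′ end, regions covered 67.6% of the downstream 5 kb, where Slc48a1, a haem transporter gene on the other strand, overlaps the last bases of Hdac7. Slc48a1 was covered to 64.5%.

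The 250 bp upstream of the Hdac7 TSS are shown beside those of Hdac2, since they were also inside a region in full. They lie at chr15:97674934-97675183 and are printed on the minus strand, from the mm9 genome.
Hdac7 upstream: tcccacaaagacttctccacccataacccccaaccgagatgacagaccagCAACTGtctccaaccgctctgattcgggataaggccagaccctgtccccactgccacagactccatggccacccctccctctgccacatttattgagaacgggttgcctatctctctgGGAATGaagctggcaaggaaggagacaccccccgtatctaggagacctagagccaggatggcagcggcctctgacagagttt
The capitals mark an E-box at bases 51 to 56 and, at bases 169 to 174 on the opposite strand, an MCAT motif. An MCAT motif was present in this stretch of 11.4% of protein-coding genes and an E-box in 63.5%. Unlike Hdac2, the Hdac7 stretch held no GC box, its GC content was 56.4%, and CpG dinucleotides occurred at 0.317 of the number that its base composition gives, against 0.931 for Hdac2. The covered starts of Hdac2 and Hdac7 thus differed in base composition.

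Hdac4, whose product restrains MEF2 in muscle and bone, is the second longest of the 9 genes, at chr1:93829334-94044970 on the minus strand (215637 bp). It held 59 regions in its window, which was covered to 25.2% (percentile of 43). Around the TSS, 8 regions covered 64.5% of the bases (percentile of 86.5), but none contained the start. The nearest upstream region ended 0.86 kb before the TSS, and the nearest region inside the gene, 240 bp long, began 551 bp after it. Coverage was higher in the 5′ part of the gene than in its 3′ part. The first 10 kb were covered to 53.4% and the bin from 90 to 100 kb to 61.6%, whereas a gap of 28.9 kb without a region lay between 181 and 210 kb past the TSS. The 2 bins with no region were those from 130 to 140 kb and from 190 to 200 kb. Its longest region, 6570 bp in an intron, began 77.1 kb past the TSS. A second annotated start 142 kb into the gene had 23.1% of its surroundings covered, which ranked at 49.5.

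The nearest Hdac4 region, at chr1:94044180-94044419 and printed on the minus strand from the mm9 genome, is shown because none of its 24-base words occurred elsewhere in the genome.
Hdac4 nearest region: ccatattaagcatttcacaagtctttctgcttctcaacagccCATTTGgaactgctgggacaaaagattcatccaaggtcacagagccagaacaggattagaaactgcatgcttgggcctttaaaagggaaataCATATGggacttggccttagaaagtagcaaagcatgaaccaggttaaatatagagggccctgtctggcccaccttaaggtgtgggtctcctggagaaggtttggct
It held 2 E-boxes, in capitals, and no other motif of the list. An E-box was present in 73.2% of the 34031 regions of 240 bp. A wider form of the MEF2 motif, with any pyrimidine at its start and any purine at its end, was searched after the data were seen. It was matched at bases 178 to 187, left in lower case, and in 5.35% of regions of this length.

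Hdac5 is a class IIa gene whose product is exported from the nucleus under hypertrophic signals. Over the gene window it was the least covered of the 9 genes. It lies on the minus strand at chr11:102055746-102091480 (35735 bp), and its window held 5 regions that covered 6.82%, where the like-length median was 25.2%. The gene body was covered to 4.95%, exons to 2.73% and the first intron to 0%. A gap of 18.2 kb without a region ran from 1.40 kb upstream of the TSS to 16.8 kb into the gene. Around the TSS, 13.5% of the bases within 5 kb were covered (percentile of 31.75), more than at Hdac1, Hdac3 and Hdac9. The longest region of the Hdac5 window, 1110 bp, and the one nearest to its TSS, 240 bp, both lay upstream. None of its 19 annotated start positions was inside a region, and 9 of the 19 had a region within 5 kb. The downstream flank, which holds the glucose-6-phosphatase gene G6pc3, was covered to 0%. The wider surroundings were covered more, at 22.6% over the 100 kb beyond each end of the gene window, beside 25.3% for the median gene.

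The nearest Hdac5 region lies at chr11:102092880-102093119 and is printed on the minus strand from the mm9 genome.
Hdac5 nearest region: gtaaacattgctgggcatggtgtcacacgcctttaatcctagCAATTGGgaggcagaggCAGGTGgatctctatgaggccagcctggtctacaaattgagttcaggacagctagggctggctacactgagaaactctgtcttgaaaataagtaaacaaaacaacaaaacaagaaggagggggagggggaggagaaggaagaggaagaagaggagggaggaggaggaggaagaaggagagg
The capitals mark 2 E-boxes, at bases 43 to 48 and 60 to 65, and a CCAAT motif on the opposite strand at bases 45 to 49, which overlaps the first of them. The sequence ends in a run of purines, and 48.8% of its 24-base words occurred more than 2 times in the genome, the commonest 3362 times. Over all regions of the Hdac5 window this share was 17.7%, against 2.75% outside them. Among the 9 genes, Hdac5 had the largest difference of this kind. Its part in the few calls at this gene was not tested.

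Hdac9 is the longest of the 9 genes, at chr12:34732451-35213754 on the minus strand (481304 bp), and its product also represses MEF2 targets in the heart. It held 111 regions in its window, of which 99 lay in introns, 10 touched an exon and 2 lay downstream. The window was covered to 29.2%, close to the like-length median of 27.9%. Within 5 kb of the TSS there was no region, and the nearest one began 7405 bp into the gene. Only 4.50% of all annotated genes had a start at least as far from a region. Starts of 2 further transcripts, at 91.5 and 155 kb, had 13.2% and 2.70% of their surroundings covered, and neither was inside a region.

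Coverage within Hdac9 was uneven. In 48 bins of 10 kb, the median was 19.9%, the lowest value was 0.45% (430 to 440 kb), and 12 bins were covered to more than 50%. The last 1.304 kb of the gene held no region. The bin from 240 to 250 kb was covered to 98.4%, by an exon-touching region of 11580 bp that was longer than 99.8% of the list. Further regions of 8550, 8010, 7140 and 6900 bp lay at 193, 447, 463 and 123 kb past the TSS. Introns were covered to 30.01% and exons to 13.6%. In both long genes most regions were intronic. Within 5 kb of the TSS, 64.5% of bases were covered at Hdac4 and 0% at Hdac9, and neither start was inside a region.

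**Figure D4:**
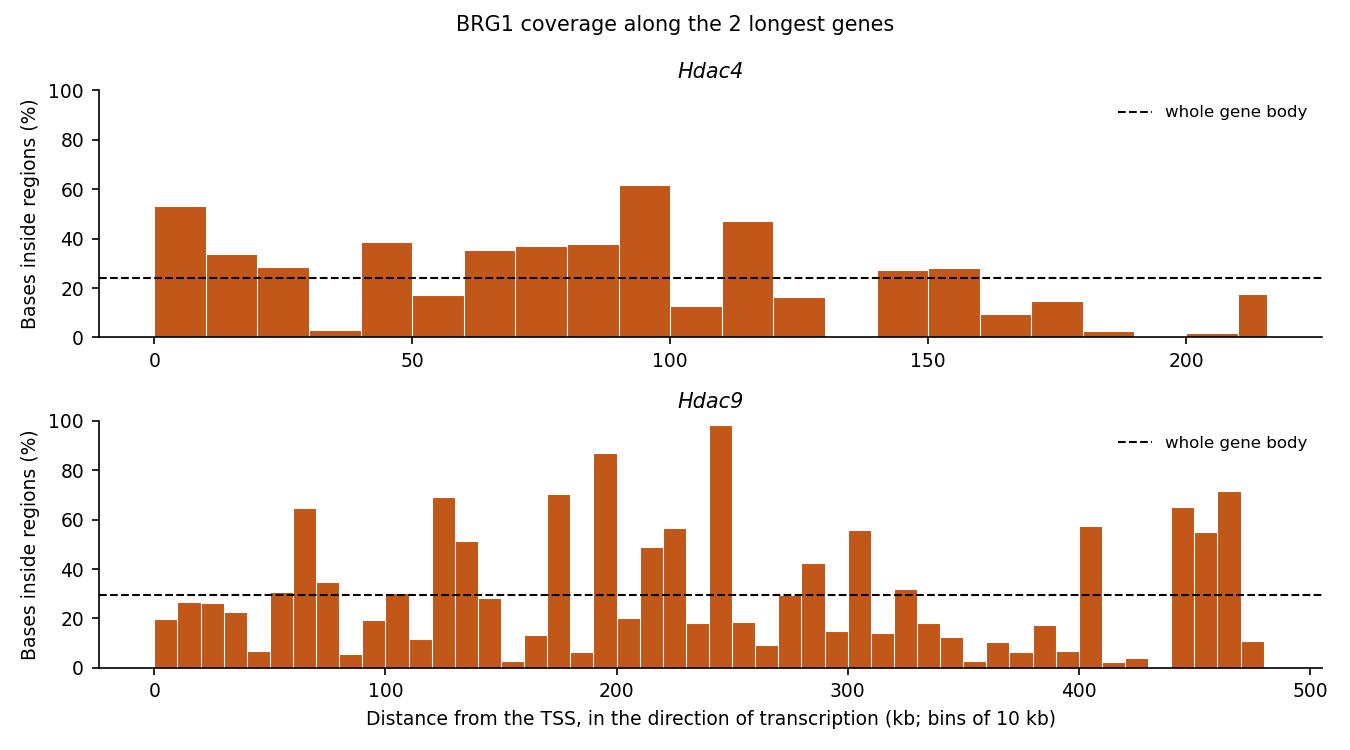
Percent of bases inside BRG1 regions in consecutive bins of 10 kb along Hdac4 (top, 22 bins) and Hdac9 (bottom, 49 bins), of which the last is shorter in each gene, from the TSS in the direction of transcription; the dashed line is the whole gene body. In Hdac4 the bins past 160 kb were all below the line, and in Hdac9 the bins of full length ranged from 0.45% to 98.4%.

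The nearest Hdac9 region, at chr12:35206110-35206349 and printed on the minus strand from the mm9 genome, is shown because a simple repeat fills much of it.
Hdac9 nearest region: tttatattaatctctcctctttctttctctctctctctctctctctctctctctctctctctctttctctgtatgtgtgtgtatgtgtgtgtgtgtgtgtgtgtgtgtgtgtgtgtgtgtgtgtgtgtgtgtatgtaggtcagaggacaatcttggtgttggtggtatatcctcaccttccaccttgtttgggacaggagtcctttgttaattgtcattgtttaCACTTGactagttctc
It held 1 E-box, in capitals, near its 3′ end. Of its 24-base words, 48.3% occurred more than 2 times in the genome. The longest Hdac9 region was different, with 3.60% of such words.

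Parp1 encodes the polymerase that makes most of the ADP-ribose chains after DNA damage and lies on the plus strand at chr1:182499086-182531384 (32299 bp). Its window held 13 regions and was covered to 21.9% (percentile of 36), whereas the 5 kb on each side of the TSS held 6 regions and were covered to 47.1% (percentile of 79.75). A region of 1830 bp began 64 bp past the TSS, inside the first exon, and 4 regions lay upstream, the nearest ending 0.597 kb before the start. The bases just before the start thus fell in a gap between regions. The first intron was covered to 51.0%, beside a protein-coding median of 16.9%. The longest region, 1950 bp, began 14.97 kb past the TSS, and a gap of 13.8 kb followed it.

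The 250 bp upstream of the Parp1 TSS held 0 bases of any region and are shown as a GC-rich promoter left uncovered between 2 regions. They lie at chr1:182498836-182499085 on the plus strand of mm9.
Parp1 upstream: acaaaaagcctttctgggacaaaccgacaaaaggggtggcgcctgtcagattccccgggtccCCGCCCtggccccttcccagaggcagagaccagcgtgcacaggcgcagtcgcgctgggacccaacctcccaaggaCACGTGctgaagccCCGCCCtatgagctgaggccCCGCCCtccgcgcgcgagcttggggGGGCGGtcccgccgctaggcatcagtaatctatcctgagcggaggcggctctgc
The capitals mark 4 GC boxes, of which 3 read on the opposite strand, and an E-box at bases 138 to 143. The GC content was 67.2%, near the 68.8% of the covered Hdac2 stretch.

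Parp2 encodes a related sensor of DNA breaks, and it is the shortest of the 9 genes, at chr14:51427621-51440975 on the plus strand (13355 bp). Its window held 8 regions and was covered to 20.2% (percentile of 39). The 5 kb on each side of the TSS were covered to 21.1% (percentile of 45), with the nearest region, 300 bp long, ending 1952 bp upstream. The longest region, 1560 bp, touched an exon 3.69 kb past the TSS. The first intron and the downstream 5 kb, which reach into the telomerase-associated gene Tep1, were covered to 0%. Over their windows the PARP genes were alike, at 21.9% and 20.2%, and around the TSS Parp1 was covered more. Over the gene body alone Parp2 was covered more, at 29.4% (percentile of 59.5) against 20.7% for Parp1 (percentile of 36.5).

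The nearest Parp2 region lies at chr14:51425370-51425669 on the plus strand of mm9 and is printed because it held none of the 6 motifs, nor the wider MEF2 form.
Parp2 nearest region: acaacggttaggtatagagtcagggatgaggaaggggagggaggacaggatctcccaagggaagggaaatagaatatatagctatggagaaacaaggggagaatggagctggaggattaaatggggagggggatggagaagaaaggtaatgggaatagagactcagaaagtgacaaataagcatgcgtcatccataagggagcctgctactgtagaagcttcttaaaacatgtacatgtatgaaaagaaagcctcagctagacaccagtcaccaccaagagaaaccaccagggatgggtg
In 38036 regions of 300 bp, an E-box was present in 80.9% and a CCAAT motif in 42.4%. Only 0.333% of its 24-base words occurred more than 2 times in the genome. It was purine-rich, with a GC content of 46.7%.

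Across the 9 genes, GC content inside regions was within 2 percentage points of that outside for 7 genes. Hdac3 (41.9% inside, 48.5% outside) and Hdac5 (48.3% inside, 53.9% outside) had GC-poorer regions. CpG dinucleotides were denser inside than outside at Hdac2 (12.7 against 8.77 per kb) and Parp1 (19.6 against 15.02 per kb). They were less dense inside at the other 7 genes, for example 9.84 against 17.7 per kb at Hdac3. Repeated 24-base words made up 7.05% of words inside regions and 8.68% outside over the 9 windows together. Their share was lower inside at Hdac1, Hdac7 and Hdac9, for example 6.59% against 11.1% at Hdac9, which has the longest window. It was higher inside at Hdac2, Hdac3, Hdac4, Hdac5, Parp1 and Parp2, for example 18.5% against 9.91% at Parp2. In the 300 bp around the TSS, the strict MEF2 motif was matched at Hdac5 alone (0.402% of protein-coding genes, and 2.05% for the wider form, which was also matched at Hdac5 alone) and the AP-1 motif at Hdac9 alone (6.00% of protein-coding genes), and both starts lay outside regions.

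Genes of the same pathways were set beside the 9 genes by the same measures. The 4 other classical HDAC genes had a median covered share of 31.5%, from 25.4% at Hdac11 to 37.8% at Hdac10, and 1 start was inside a region. Sirtuins, the NAD-dependent deacetylases, had a median of 47.3% over 7 genes, from 12.0% at Sirt1 to 61.8% at Sirt6. Of their 7 starts, 4 were inside a region, where the share over all annotated genes was 24.7%. The 12 other PARP family genes had a median of 26.3%, from 21.2% at Parp11 to 66.4% at Parp16, and 2 starts were inside a region. The 3 genes that remove ADP-ribose had a median of 30.7%, from 29.7% at Macrod1 to 49.2% at Adprhl2, and 0 starts were inside a region. Each of these medians lay above the 21.9% of the 9 genes, although single genes such as Sirt1 and Parp11 lay below it. By regions per kb the order turned for 3 of the 4 lists, with a median of 0.261 for the 9 genes, 0.224 for the other HDACs, 0.233 for the other PARP genes and 0.165 for removal of ADP-ribose. The sirtuins remained higher, at 0.296. Around the TSS the other HDACs had a median of 18.9%, below the 21.1% of the 9 genes, and the other PARP genes (26.5%), the genes that remove ADP-ribose (35.1%) and the sirtuins (46.5%) had higher ones. The differences were not tested.

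Genes of proteins that hold or control HDACs were measured in the same way. Subunits of HDAC complexes (19 genes) had a median of 28.5%, from 10.6% at Mta1 to 66.5% at Mbd3, both of NuRD. Of their 19 starts, 5 were inside a region, close to the share of 24.7% over all annotated genes. Partners of class IIa HDACs (6 genes) ranged narrowly, from 24.2% at the calcium-regulated kinase gene Camk2d to 32.5% at Mef2c, with a median of 30.7%. Of these 6 starts, 2 were inside a region. The medians per kb of both lists, 0.243 and 0.259 regions, were not above that of the 9 genes. Smarca4, which encodes BRG1 itself, was covered to 40.1% (percentile of 93), although 4.84% of the 5 kb on each side of its TSS lay inside regions. Of the myosin genes on which these enzymes act, Myh6 was covered to 41.9% and Myh7 to 10.6% over their windows, whereas within 5 kb of the TSS the order turned, with 3.90% at Myh6 and 33.0% at Myh7. Over the gene window, Hdac2 alone of the 9 genes was covered more than Smarca4. Over the gene body alone, Hdac2 (42.4%) was covered less than Smarca4 (44.4%). Around the TSS, Hdac9 alone of the 9 genes was covered less than Smarca4.

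**Figure D5:**
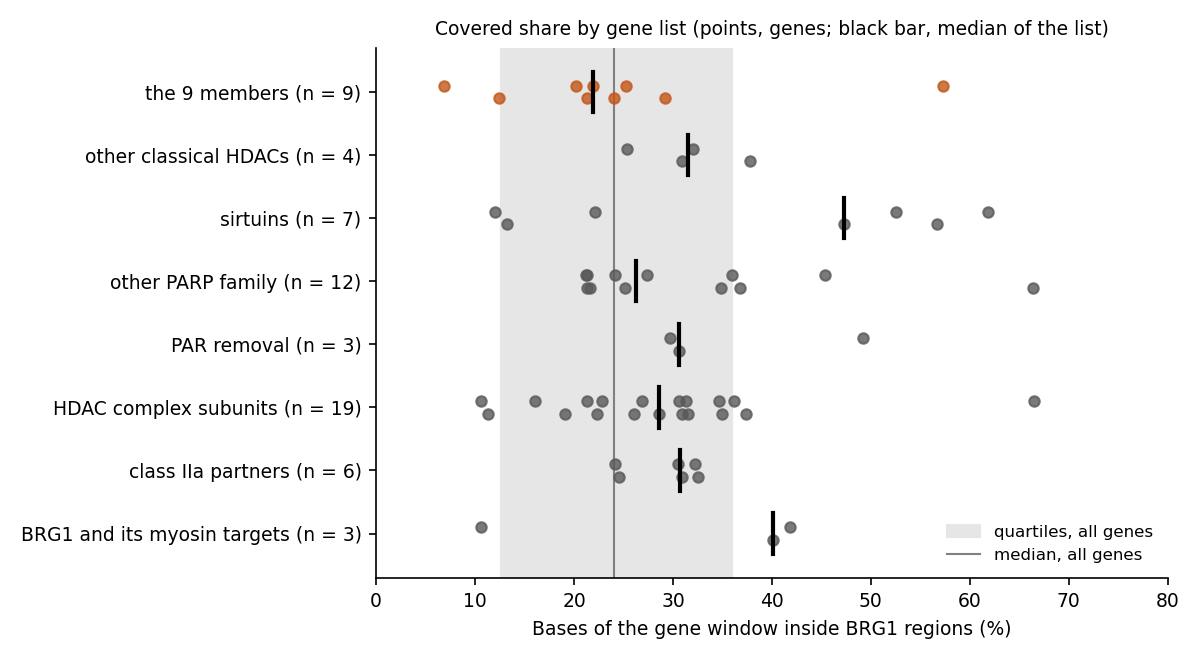
Percent of bases of the gene window (gene body with 5 kb flanks) inside BRG1 regions, with 1 point per gene and a black bar at the median of each list; the grey band gives the quartiles of all annotated genes and the grey line their median. The 9 genes had a median of 21.9% and the sirtuins one of 47.3%. Among the 9 genes Hdac2 (57.3%) was the highest point and Hdac5 (6.82%) the lowest.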

How the data were processed

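BRG1 ChIP and input libraries of PBS- and Tβ4-primed hearts were sequenced by the authors on a NextSeq 500 and mapped to mm9. Bowtie 1.0.0 and MACS2 2.0.10 are named in the submitters' processing notes. The deposited list gives region positions in bp, with no score. According to the methods, peaks came from MACS2 bdgcomp, but the name of the list is of the kind MACS2 gives when it compares conditions, which leaves the exact call unknown. How duplicates were combined is not given in the sources used here, and depth is unknown. Groups came from the sample labels.

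Covered bases and regions (at least 1 bp of overlap) were counted over gene bodies with 5 kb flanks and 5 kb around the TSS, the 5′ end of the gene. Genes were compared with the 200 annotated genes nearest in length. The counting was tested on simulated regions, where it equalled bedtools 2.31.1 for 37273 of 37273 genes. Python 3.11.15, numpy 2.4.6 and pandas 2.3.3 were used. The genes named were the 9 members, the extremes of each related list, Smarca4, Myh6, Myh7 and overlapping neighbours. Twist1 was added outside this rule, after its values were seen. Members and lists were chosen with earlier results of these data known. The genome file carried no repeat masking, so the planned repeat share was replaced by copy numbers of 24-base words, chosen after seeing the data. No sequence is shown for Hdac3. Alternatives were other windows, joined regions, other comparison genes, other starts and region density.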

Additional observations from a re-analysis of the deposited data

How the results depend on the processing

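The median covered share of the 9 gene windows stayed between 20.7% and 24.4% in the 5 alternatives run for it. Genes above the median of their like-length genes numbered 2 by covered share, 2 or 3 in the alternatives that kept that measure, and 7 by regions per kb. Around the TSS the number was 4, with 5 at the most covered transcript start and 2 at the least covered. The median around the TSS, 21.1%, fell to 6.00% within 2 kb and to 0% within 1 kb, where all genes had medians of 14.7% and 10.5%, and to 9.60% at the least covered transcript start. Genes with the start in a region numbered 2 (24.7% of all genes), or 3 when any annotated transcript start was counted. A region lay within 500 bp of the TSS for 3 genes and within 1 kb for 4 (54.3% of all genes), in place of 8 within 5 kb (89.9%). No share over all genes was computed for any transcript start or for 500 bp, so those counts have no background beside them. The cause of the lower values close to the TSS was not tested. At the least covered start, Hdac7 fell from the percentile of 91.75 to 3 and Hdac4 from 86.5 to 49.5, ranked against the gene starts of other genes. Hdac5 stayed at or below the percentile of 5.5 in all 11 window settings, and Hdac2 fell below the middle, to 12.5, by density alone. Of 162 values of single genes, 53 moved outside the 95% Wilson interval of the percentile. No paired analysis was possible because the list does not separate replicates. Leaving out replicates and stricter score thresholds were not run, since the list holds neither replicates nor scores.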

Other observations

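The surroundings of the 9 genes were less uneven than the genes. They are longer stretches than most of the gene windows, which by itself can narrow the spread. In the 100 kb beyond each end of the gene window, covered shares ran from 21.6% at Hdac4 to 33.4% at Hdac3, beside 25.3% for the median gene. These stretches leave out the gene and its 5 kb flanks. At Hdac2, whose window was covered to 57.3%, the surroundings were covered to 22.9%. At Hdac1 they were covered to 23.6%.

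Twist1, which encodes a transcription factor of mesenchymal cells, is the neighbour of Hdac9 past its 3′ end, 87.8 kb away. The gap between them held 14 regions and was covered to 20.6%. The Twist1 body was covered to 0%, and its window held 4 regions that covered 18.4%. The lincRNA gene Gm17418, inside Hdac4, was covered to 36.1%, and Gm17532, inside Hdac7, held 0 regions.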
